A study of Homo sapiens with 10 samples.

Results

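The Golgi enzymes that build complex N-glycans were examined in HepG2 cells, a human hepatoma line, with and without tunicamycin. The 10 genes MAN2A1, MGAT1, MGAT2, MGAT3, MGAT4A, MGAT4B, MGAT5, FUT8, B4GALT1 and ST6GAL1 were chosen by gene symbol, and each had 1 row among the 32738 genes of the count table. The 5 control libraries came from HepG2 cells kept in regular medium, and the 5 tunicamycin libraries from HepG2 cells kept for 17 h in medium with 2 µg/ml tunicamycin. All 10 libraries come from this single cell line. Each replicate number stands for an experiment done on its own day, so a control and a tunicamycin library share each day. The measurement is 3′ mRNA sequencing of bulk RNA, in which each transcript gives about a single fragment near its end, and in bulk RNA fewer cells of a type and less RNA per cell cannot be told apart.

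N-glycans are assembled on a lipid carrier in the endoplasmic reticulum (ER), transferred to asparagines of new proteins and then rebuilt in the Golgi. Tunicamycin inhibits DPAGT1, the enzyme that starts the assembly on the lipid, so that new proteins are made without these glycans. In the Golgi, MGAT1 starts the complex type of glycan, MAN2A1 trims the remaining outer mannoses, MGAT2, MGAT4A, MGAT4B and MGAT5 add branches, MGAT3 adds a bisecting residue, FUT8 adds fucose to the core, B4GALT1 adds galactose to the branches and ST6GAL1 caps them with sialic acid. In the liver these enzymes finish the glycans of most plasma proteins.

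Library totals ranged from 4242538 to 4888292 counts in control and from 2234682 to 5029864 in tunicamycin, with the lowest 2 in tunicamycin replicates 5 and 4, and mitochondrial transcripts took 18.3% to 28.8% of the counts. The treatment was checked with 6 ER stress markers, all of which were called higher, with log2 fold changes from 1.42 to 3.76 (DNAJB9), and the ER chaperone gene HSPA5 went from 8445 ± 559 to 66202 ± 4410 normalized counts (SD, n = 5 each). All 8 hepatocyte markers examined, among them ALB and AFP, passed the filter on low counts. Of these, TTR (log2 fold change -1.02), APOA1 (-0.91) and 2 others were lower and 0 higher by edgeR, where 1 was higher at an unadjusted p under 0.05 and DESeq2 called 0 higher. Over all genes tested, edgeR called 16.6% lower and 17.6% higher. The 5 markers of fibroblasts, endothelium and blood cells found in the table summed to 16.6 to 35.3 normalized counts in control and 10.1 to 26.1 in tunicamycin. CD68 made up nearly all of this and was called lower (log2 fold change -0.83), a call lost after thinning and with each of control replicates 1, 2 and 5 and tunicamycin replicates 1, 2 and 5 left out in turn, while PTPRC was at 0 in every library and COL1A1, COL3A1 and VWF each averaged less than 1 normalized count per group. HepG2 is a single cell line, and whether any such cells had a part in the results below was not tested.

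Of the 10 genes, 9 passed the filter on low counts. With tunicamycin B4GALT1 and MGAT2 were higher and MGAT5 and MGAT4B lower (edgeR quasi-likelihood fit, threshold 0.05 on the Benjamini-Hochberg adjusted p), and MAN2A1, MGAT1, MGAT4A, FUT8 and ST6GAL1 were not called. Among all 12733 genes tested, 17.6% were called higher, 16.6% lower and 34.2% in either direction, so counts of 2 higher and 2 lower among 9 genes lie near the background. The median log2 fold change of the 9 genes was 0.11, and that of all genes tested was -0.0033. With library size as the only scaling, 40.8% of all called genes were higher, against 51.4% with TMM scaling, but the calls of the 9 genes were the same under both. Values below are normalized counts, that is, counts per TMM-scaled library brought to the mean size of the 10 libraries. Gene positions are those of GRCh38, and exons are those of the canonical transcript.

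**Figure D1:**
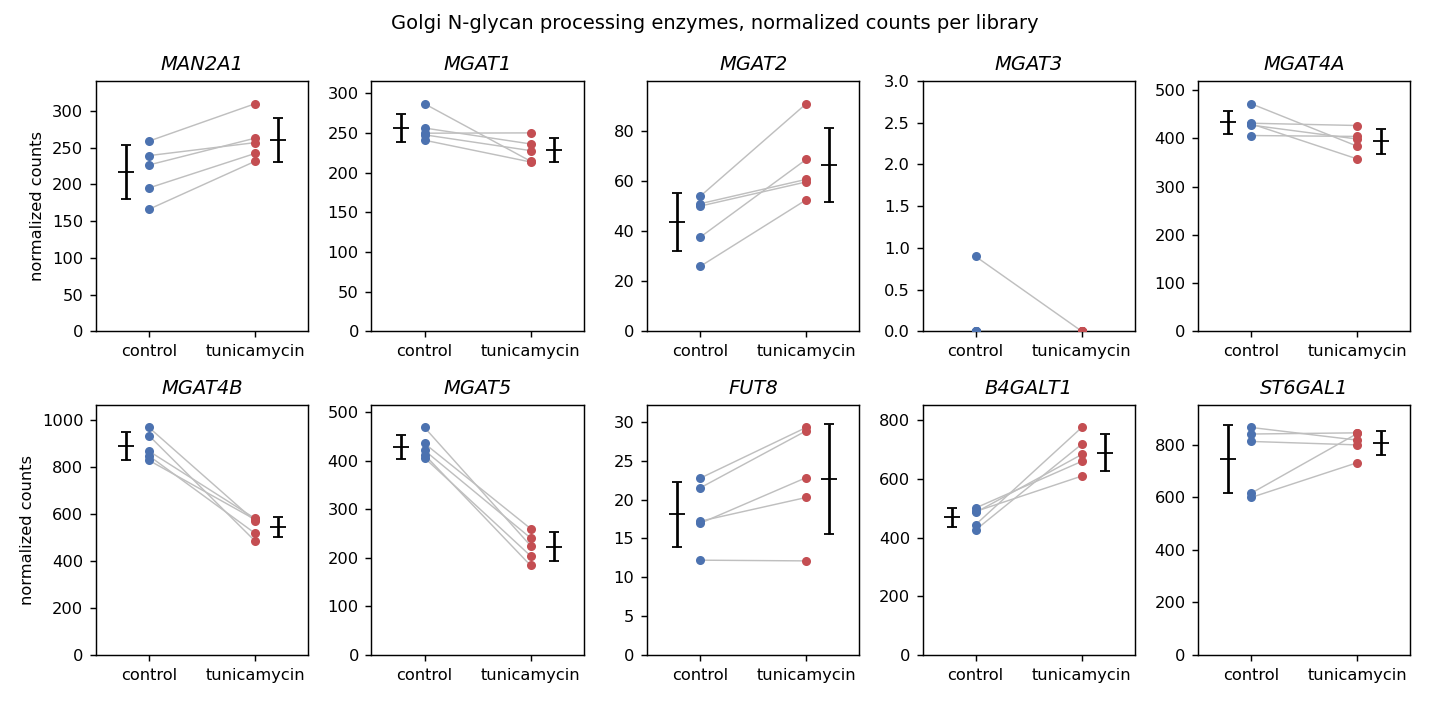
Normalized counts per library of the 10 Golgi N-glycan processing genes, each on its own linear axis from 0, in control (blue) and tunicamycin (red) libraries. Grey lines join the libraries of a replicate number, and black bars give the mean ± SD of 5 libraries for the 9 genes tested. B4GALT1 lies above its control range in every tunicamycin library, and MGAT4B and MGAT5 below theirs.

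In control cells the order by mean normalized counts was MGAT4B (888), ST6GAL1 (746), B4GALT1 (469), MGAT4A (433), MGAT5 (428), MGAT1 (256), MAN2A1 (217), MGAT2 (43.5), FUT8 (18.1) and MGAT3. Levels here count transcripts by their 3′ ends and were not divided by gene length, and capture can differ between genes. The ranges of neighbours overlapped for MGAT4B with ST6GAL1, for B4GALT1 with MGAT4A, for MGAT4A with MGAT5 and for MGAT1 with MAN2A1. With tunicamycin the means of ST6GAL1 (807) and B4GALT1 (689) exceeded that of MGAT4B (545), while the ranges of ST6GAL1 and B4GALT1 overlapped each other.

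Branch initiation was examined first. MGAT1 (ENSG00000131446, chr5:180784780-180815652, minus strand, 2 exons), which adds the N-acetylglucosamine that opens the complex pathway, had 249.6, 241, 248, 287 and 256 normalized counts in control replicates 1 to 5. Its tunicamycin values were 250.0, 213, 228, 214 and 236, and 4 of them lay below the lowest control value. The log2 fold change of -0.17 (standard error 0.09, 95% interval -0.36 to 0.03, adjusted p = 0.188) was not called. ENSG00000280161 on the opposite strand overlaps MGAT1 in exon sequence other than the last exon. MAN2A1 (ENSG00000112893, chr5:109689927-109869625, plus strand, 22 exons), Golgi alpha-mannosidase II, had 166, 226, 259, 239 and 195 normalized counts in control and 231, 263, 309.8, 257 and 242 with tunicamycin. Each tunicamycin library was above the control library of its day, but the groups overlapped. The log2 fold change was 0.27 (standard error 0.12, 95% interval 0.01 to 0.52), with an adjusted p of 0.102 by edgeR. With the replicate block, which compares libraries within days, it was 0.27 with an adjusted p of 0.0312 in edgeR, which is past the threshold, and 0.27 with an adjusted p of 0.0813 in DESeq2, which is not.

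MGAT2 (ENSG00000168282, chr14:49620799-49623481, plus strand, 1 exon), which adds the branch on the other arm once MAN2A1 has acted, had 25.8, 37.5, 49.9, 53.8 and 50.8 normalized counts in control replicates 1 to 5. Under tunicamycin it had 52.4, 68.5, 59.5, 90.7 and 60.5. It was higher in 5 of 5 pairs, by 0.25 to 1.01 on the log2 scale, although the lowest tunicamycin value lay below the highest control value. The fold change was 1.51 (log2 0.60, standard error 0.20, adjusted p = 0.0291). This call was lost in 4 of the 10 fits that left out a library, those without control replicate 1 (log2 0.45, adjusted p = 0.0664), control replicate 2 (0.55, 0.0705), tunicamycin replicate 2 (0.59, 0.0554) and tunicamycin replicate 4 (0.47, 0.0864), and also without both shallow tunicamycin libraries (0.47, 0.131) and after thinning to the smallest library (0.46, 0.152). With the replicate block MGAT2 was called, with a log2 fold change of 0.63 in edgeR (adjusted p = 0.00579) and 0.63 in DESeq2 (adjusted p = 0.0228). An exon of a gene annotated on the opposite strand (ENSG00000258377) overlaps the only exon of MGAT2. Without strand in the counting, reads of the pair could not be told apart, which makes the values of MGAT2 uncertain.

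The later branching enzymes went down or were not called. MGAT5 (ENSG00000152127, chr2:134119983-134454621, plus strand, 16 exons), which adds the branch that is extended on many growth factor receptors, had 421, 435, 468, 412 and 406 normalized counts in control replicates 1 to 5 and 241, 260.0, 225, 184 and 204 with tunicamycin. Every tunicamycin library was well below every control library. MGAT5 fell 1.91-fold (log2 -0.93, standard error 0.10, adjusted p = 8.21e-07). Within days it decreased by 0.74 to 1.16 on the log2 scale. Its decrease was larger than that of all but 6.02% of the genes tested, and no annotated exon of another gene overlaps its exons.

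MGAT4A and MGAT4B are isoenzymes that add the same branch. MGAT4B (ENSG00000161013, chr5:179797597-179806952, minus strand, 15 exons) had 967, 846, 866, 827 and 932 normalized counts in control and 569, 517, 580.0, 576 and 484 with tunicamycin, again without overlap. It fell 1.62-fold (log2 fold change -0.70, standard error 0.08, adjusted p = 3.35e-06). MGAT4A (ENSG00000071073, chr2:98619106-98731132, minus strand, 16 exons) had 431, 406, 472, 427 and 430.0 normalized counts in control and 427, 404, 384, 398 and 357 with tunicamycin. It was lower in 5 of 5 pairs, by as little as 0.0064 in replicate 2, and the groups overlapped. Its log2 fold change of -0.13 (standard error 0.08, 95% interval -0.31 to 0.04, adjusted p = 0.235) was not called. Exons of SQSTM1 on the opposite strand overlap exons of MGAT4B other than the last.

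MGAT3 (ENSG00000128268, chr22:39457012-39492194, plus strand, 2 exons) had 1 count in control replicate 4 and 0 counts in the other 9, where a count of 0 leaves room for up to 3. Its response to tunicamycin was not detectable at this depth. MGAT4B and MGAT5 were thus the only 2 of the 10 genes called lower, and neither overlapped between groups, which held for 11.9% of all genes tested in this direction.

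FUT8 (ENSG00000033170, chr14:65410592-65744121, plus strand, 11 exons), the enzyme of core fucose, a modification known from the fucosylated alpha-fetoprotein of hepatocellular carcinoma, was low. It had 17.2, 16.9, 22.7, 21.5 and 12.2 normalized counts in control and 20.3, 22.8, 29.3, 28.8 and 12.1 with tunicamycin. Replicate 5 was lowest in both groups. FUT8-AS1 on the opposite strand overlaps FUT8 in exon sequence other than the last exon. The log2 fold change of 0.35 had a wide 95% interval of -0.20 to 0.90 (standard error 0.26, adjusted p = 0.331), so neither no change nor an increase of the size seen for MGAT2 lay outside it.

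B4GALT1 (ENSG00000086062, chr9:33104082-33167356, minus strand, 6 exons), the galactosyltransferase, had 426, 444, 486, 501 and 489 normalized counts in control replicates 1 to 5. With tunicamycin it had 718, 775, 683, 659 and 609. All tunicamycin libraries were above all control libraries, as for 11.7% of the genes tested. B4GALT1 rose 1.47-fold (log2 0.56, standard error 0.09, adjusted p = 6.84e-05). Within days the increase was 0.32 to 0.80 on the log2 scale. The increase passed the test in each fit that left out a library and under each other setting. B4GALT1-AS1 on the opposite strand overlaps B4GALT1 in exon sequence other than the last exon.

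ST6GAL1 (ENSG00000073849, chr3:186930325-187078553, plus strand, 8 exons), the sialyltransferase that caps galactose, was uneven between days in control cells, with 599, 615, 865, 840.4 and 812 normalized counts, and more even with tunicamycin, with 731, 842, 817, 845 and 799. Control replicates 1 and 2 were low, and only in these pairs was the tunicamycin library clearly higher. The log2 fold change was 0.11 (standard error 0.11, 95% interval -0.11 to 0.34, adjusted p = 0.443).

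**Figure D2:**
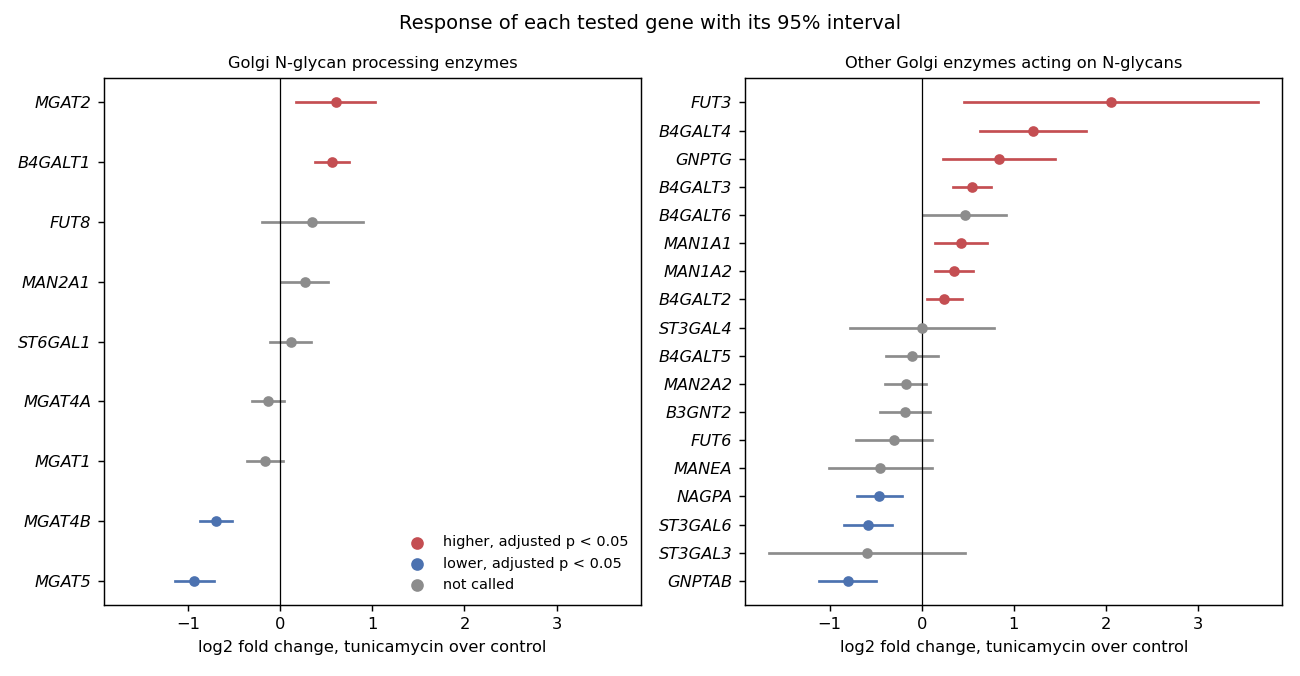
Log2 fold changes of tunicamycin over control from edgeR with 95% intervals, for the 9 tested Golgi N-glycan processing genes (left) and the 18 tested genes among 24 other Golgi enzymes that act on N-glycans (right), coloured by call. MGAT2 and B4GALT1 stand at the top of the left panel and MGAT4B and MGAT5 at the bottom, and FUT3 has the widest interval on the right.

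All 4 genes called are shown with the stretch just upstream of their start, since promoters of ER stress genes carry known elements there. RefSeq windows of GRCh38.p14, with 250 bases before and 50 after each start, held 18 windows for 8 of the 10 genes. Shown are the 150 bases before the start nearest to the annotated 5′ end, read along the gene's strand, at chr9:33167337-33167486 on the minus strand for B4GALT1, chr14:49620649-49620798 on the plus strand for MGAT2, chr2:134119785-134119934 on the plus strand for MGAT5 and chr5:179806867-179807016 on the minus strand for MGAT4B. The RefSeq starts of B4GALT1 and MGAT4B lie inside the genes as annotated, so part of each of these stretches falls within the positions given above. Capitals mark GC boxes (GGGCGG) and CCACG, a part of the ER stress response element, on either strand.
B4GALT1: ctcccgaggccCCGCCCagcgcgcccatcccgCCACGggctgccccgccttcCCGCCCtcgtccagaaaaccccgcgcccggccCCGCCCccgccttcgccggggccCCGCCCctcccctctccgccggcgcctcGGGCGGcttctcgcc
MGAT2: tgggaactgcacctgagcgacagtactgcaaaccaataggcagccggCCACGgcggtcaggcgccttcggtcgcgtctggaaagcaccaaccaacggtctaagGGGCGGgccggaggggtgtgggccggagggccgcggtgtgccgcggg
MGAT5: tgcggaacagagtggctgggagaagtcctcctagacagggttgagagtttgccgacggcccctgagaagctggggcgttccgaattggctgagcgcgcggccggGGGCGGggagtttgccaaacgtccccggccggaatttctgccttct
MGAT4B: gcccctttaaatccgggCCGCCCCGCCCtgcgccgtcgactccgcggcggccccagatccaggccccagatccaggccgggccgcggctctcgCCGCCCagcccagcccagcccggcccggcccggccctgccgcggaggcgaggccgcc

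For comparison, the HSPA5 promoter holds the whole ER stress response element on the minus strand of GRCh38.p14 at chr9:125241391-125241409, with the fixed bases in capitals.
HSPA5: CCAATcggcggcctCCACG

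The whole element (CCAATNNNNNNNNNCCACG), its second form (ATTGG and CCACG with any base in between), the UPR element (TGACGTGG) and the AP-1 site (TGAGTCA) were searched on both strands. None of the 18 windows held any of them, and they are rare, in 0.0773%, 0.0544%, 0.73% and 4.96% of 34943 windows. The C/EBP-ATF composite site was not searched. The study says that it appears to be the main binding motif of the transcription factor ATF4 under ER stress. The stretches of B4GALT1 and MGAT4B hold 5 and 3 GC boxes, and those of MGAT2 and MGAT5 hold 1 each. A GC box occurs in 44.9% of all windows and CCACG, which is also a part of both longer elements, in 38.1%. Both B4GALT1, which rose, and MGAT4B, which fell, are rich in G and C here (83.3% and 82.0%).

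Ratios of enzymes within a library do not depend on library scaling where both counts are well above 0, which those of MGAT3 were not. Here 6 ratios were compared with an exact permutation test over the libraries (two-sided, smallest p 0.00794). The p-values were adjusted over all 6, with MGAT5 to MGAT3 among them. MGAT4B transcripts exceeded MGAT4A transcripts 2.24, 2.08, 1.84, 1.93 and 2.17 times in control replicates 1 to 5 and 1.33, 1.28, 1.51, 1.44 and 1.35 times with tunicamycin. The groups did not overlap, and the log2 ratio fell by 0.57 (p = 0.00794, adjusted p = 0.0238, exact permutation test). The balance of the isoenzymes thus shifted toward MGAT4A. The ratio of MGAT2 to MGAT1 was 0.105, 0.157, 0.203, 0.189 and 0.2 in control and 0.211, 0.323, 0.263, 0.425 and 0.260 with tunicamycin. Its log2 value rose by 0.79 (p = 0.00794, adjusted p = 0.0238, exact permutation test), but not beyond the threshold after thinning to the smallest library (0.64, adjusted p = 0.107). Compared within days by sign flips, where 5 pairs allow no p below 0.0625, both of these ratios had an adjusted p of 0.0938.

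The other ratios were not called. That of MAN2A1 to its paralog MAN2A2 was higher in 5 of 5 pairs, by 0.44 on the log2 scale (exact permutation test, adjusted p = 0.0833). It was called without control replicate 4 (0.52, exact permutation test, adjusted p = 0.0357). An exon of ENSG00000259661 on the opposite strand overlaps the last exon of MAN2A2. The log2 ratio of B4GALT1 to B4GALT3 was 1.51 ± 0.099 in control and 1.52 ± 0.12 with tunicamycin (SD, n = 5 each, exact permutation test, adjusted p = 0.96). The ratio of ST6GAL1 to ST3GAL4 differed by 0.13 (exact permutation test, adjusted p = 0.838) with only 20.5 ± 4.88 normalized counts of ST3GAL4 in control. The ratio of MGAT5 to MGAT3 cannot be read, since MGAT3 was at or near 0 in every library. Its value rests on the 0.5 added to each count and moves with library depth.

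**Figure D3:**
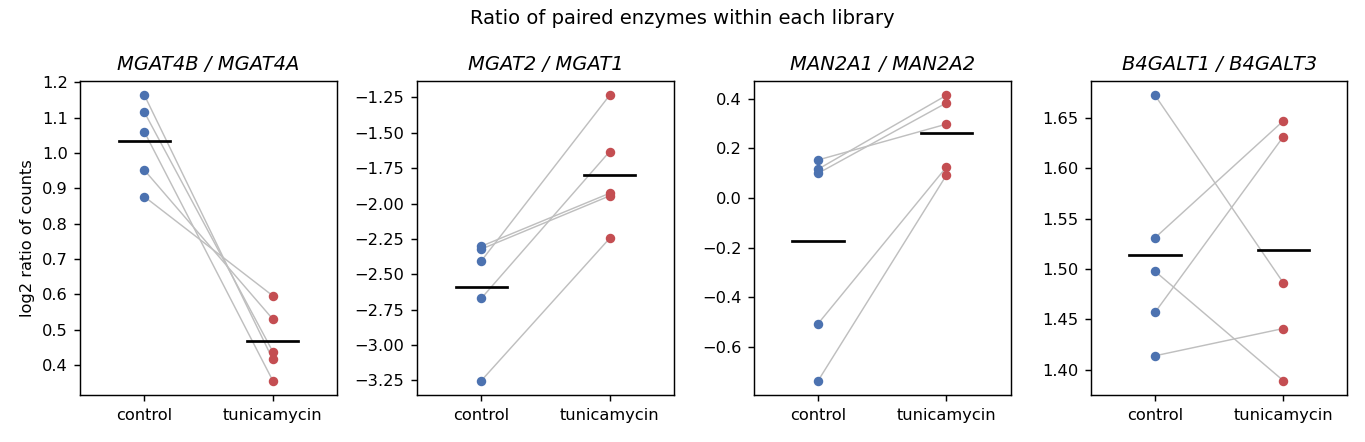
Log2 ratio of the counts of paired enzymes within each library (pseudocount 0.5), in control (blue) and tunicamycin (red), each on its own axis that does not start at 0. Grey lines join replicate numbers and black bars are means of 5 libraries. MGAT4B to MGAT4A fell and MGAT2 to MGAT1 rose without overlap, while B4GALT1 to B4GALT3 moved in both directions.

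Other Golgi enzymes that act on N-glycans were taken from a list of 24 genes, of which 18 were tested, 7 called higher and 3 lower, with a median log2 fold change of -0.05. This list and the B4GALT family are to be read against the 17.6% of all tested genes called higher and 16.6% lower. B4GALT4, a paralog of B4GALT1, had 46.8 ± 23.0 normalized counts in control and 110.1 ± 30.6 with tunicamycin (SD, n = 5 each, log2 fold change 1.21, adjusted p = 0.00202), and B4GALT3 had 164 ± 12.7 and 239 ± 9.19 (0.55, adjusted p = 0.00022). Of the 6 measured genes B4GALT1 to B4GALT6, 4 were called higher and 0 lower by edgeR, with 0 lower also at an unadjusted p under 0.05. The call of B4GALT2 (log2 fold change 0.25, adjusted p = 0.0418) was lost with library size only (adjusted p = 0.224), in 8 of 10 fits that left out a library (all but control replicate 1 and tunicamycin replicate 5) and under other settings. B4GALT5 (-0.10, adjusted p = 0.598) and B4GALT6 (0.47, adjusted p = 0.106) were not called, and the sign of B4GALT5 turned after thinning. MAN1A1 and MAN1A2, the Golgi mannosidases that act before MGAT1, had log2 fold changes of 0.43 and 0.35 (adjusted p of 0.0186 and 0.00987). MAN1A1 lost its call without tunicamycin replicate 4 (0.31, adjusted p = 0.0615) and without both shallow libraries (0.22, adjusted p = 0.204), and MAN1A2 with library size only (0.27, adjusted p = 0.0727). An exon of ENSG00000253194 on the opposite strand overlaps the last exon of MAN1A1.

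Among the genes called lower were ST3GAL6, a sialyltransferase, with 112 ± 4.83 normalized counts in control and 74.4 ± 8.76 with tunicamycin (SD, n = 5 each), and GNPTAB, the catalytic subunit precursor of the enzyme that makes the lysosomal mannose 6-phosphate tag. GNPTAB fell from 235 ± 26.6 to 133 ± 35.2 normalized counts (log2 fold change -0.80, adjusted p = 0.000372). GNPTG, the other subunit of that enzyme, had a log2 fold change of 0.84 (adjusted p = 0.0311). This call was lost with DESeq2 (adjusted p = 0.0908), after thinning (adjusted p = 0.0593) and without both shallow libraries (adjusted p = 0.153). It was also lost with each of control replicates 1 to 3 and tunicamycin replicates 2 to 5 left out in turn. With the replicate block in edgeR GNPTG was called (0.87, adjusted p = 0.000172). An exon of UNKL on the opposite strand overlaps the last exon of GNPTG. FUT3 had the largest estimate (2.06), from 0.88 ± 0.89 to 4.42 ± 3.05 normalized counts, and its reads may be shared with its near-identical paralogs FUT5 and FUT6. The call of FUT3 was lost with each of control replicates 1, 2 and 5 and tunicamycin replicates 2 to 5 left out in turn (adjusted p from 0.0531 to 0.146). It was also lost with library size only (adjusted p = 0.0501), without the filter (0.0578), after thinning (0.0867) and without both shallow libraries (0.231).

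Donor sugars for these enzymes were covered by 14 genes of nucleotide sugar synthesis and Golgi import, all tested, with 6 called higher and 0 lower by edgeR (0 lower also at an unadjusted p under 0.05 and with DESeq2) and a median log2 fold change of 0.24. Over all genes tested, 17.6% were called higher and 16.6% lower. Of the genes for sialic acid in that list, GNE, NANS and CMAS were called higher, while NANP (log2 fold change 0.22, adjusted p = 0.443) and the transporter SLC35A1 (0.26, adjusted p = 0.26) were not called. NANS had 379 ± 27.3 normalized counts in control and 628 ± 45.2 with tunicamycin (SD, n = 5 each, log2 fold change 0.73, adjusted p = 2.87e-06), GNE 22.1 ± 6.44 and 44.2 ± 17.3, and CMAS 55.1 ± 9.27 and 96.0 ± 20.9. SLC35A2, the transporter of the galactose donor that B4GALT1 uses, had a log2 fold change of 0.70 (adjusted p = 0.0158), and SLC35C1, which imports the fucose donor that FUT8 uses, of 0.59 (adjusted p = 0.00173). An exon of PQBP1 on the opposite strand overlaps the last exon of SLC35A2. SLC35A2 was no longer called after thinning (adjusted p = 0.0552) or without both shallow libraries (adjusted p = 0.065), nor was GNE in the latter fit (adjusted p = 0.0523).

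Steps before the Golgi were taken from 2 further lists, to be read against the 17.6% of all tested genes called higher and 16.6% lower. Of 12 oligosaccharyltransferase subunits, which transfer the glycan to protein, 11 were tested, 8 called higher and 0 lower (0 lower also at an unadjusted p under 0.05 and with DESeq2), and the median log2 fold change was 0.89. RPN1 had 193 ± 30.6 normalized counts in control and 821 ± 378 with tunicamycin, and MAGT1 had 259.7 ± 17.0 and 735 ± 48.3 (SD, n = 5 each). The 24 genes of lipid-linked oligosaccharide assembly were mixed, with 8 higher, 5 lower and a median of 0.05. NUS1, a subunit of the enzyme that makes the lipid carrier, had a log2 fold change of 1.75 and ALG13, which acts right after DPAGT1, of 1.73. In tunicamycin replicates 1 to 3 ALG13 had 49.8, 76.4 and 95.4 normalized counts, but 194 and 137 in the shallow replicates 4 and 5. RPN1 had 416, 639 and 617 in the former and 1316 and 1118 in the latter. Under other settings the log2 fold change of ALG13 was as low as 1.19 and that of RPN1 1.53, both still called. DPAGT1, the target of tunicamycin, had 296 ± 39.0 normalized counts in control and 368 ± 13.8 with tunicamycin (log2 fold change 0.31, adjusted p = 0.0171), a call lost after thinning (0.23, adjusted p = 0.0846), with library size only (0.23, adjusted p = 0.103), without control replicate 2 (0.28, adjusted p = 0.0518) and without both shallow libraries (0.30, adjusted p = 0.0557). Whether the lists differ from each other was not tested.

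Golgi genes of other kinds came from 2 more lists, to be read against the 34.2% of all tested genes called in either direction. Of 11 genes of the COG tethering complex and Golgi ion homeostasis, 3 were higher and 2 lower (median 0.02), and of 13 tested among 18 Golgi genes of mucin-type O-glycans, 2 were higher and 1 lower (median 0.04). SLC10A7, a Golgi membrane protein needed for normal glycosylation, rose from 32.7 ± 9.52 in control to 86.6 ± 12.6 (SD of 5 libraries each). COG5 had 62.5, 60.5 and 38.7 normalized counts in tunicamycin replicates 1 to 3 but 1092 and 1257 in replicates 4 and 5, against 47.7 ± 6.93 in control. Without these 2 libraries its log2 fold change went from 3.32 (adjusted p = 0.00244) to 0.18 (adjusted p = 0.554), with DESeq2 and the replicate block it was 1.76 (adjusted p = 0.142), and an exon of HBP1 on the opposite strand overlaps the last exon of COG5. Among the O-glycan genes, GALNT1, which starts such glycans, fell from 799 ± 80.7 to 485 ± 61.3 normalized counts, and the sialyltransferase ST6GALNAC4 rose from 132 ± 19.2 to 218 ± 19.3.

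**Figure D4:**
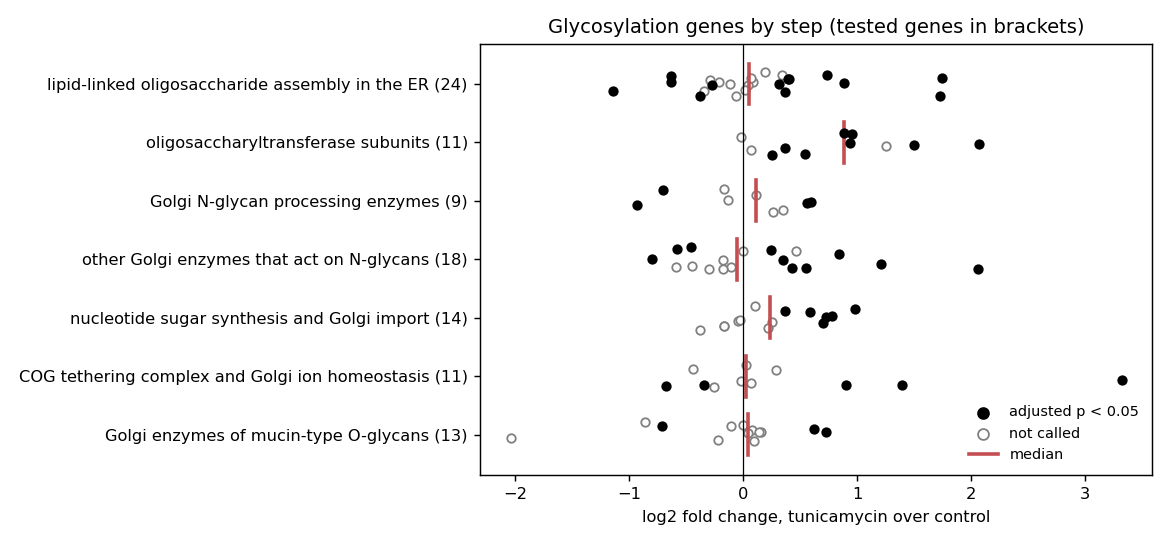
Log2 fold changes of tunicamycin over control for tested genes of 7 lists, from assembly of the glycan in the ER (top) to Golgi steps, with filled points for genes at an adjusted p under 0.05 and red bars for medians. The oligosaccharyltransferase median lies at 0.89 and that of the Golgi N-glycan processing enzymes at 0.11, with MGAT5 and MGAT4B as its lowest points, and the point of COG5 (3.32) rests on 2 libraries.

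The fold changes of the Golgi N-glycan processing genes under other settings kept their sign throughout. B4GALT1 ranged from 0.48 to 0.64 over 10 other settings, MGAT5 from -1.01 to -0.82 and MGAT4B from -0.78 to -0.67, each called in all of them and in all 10 fits without a library. MGAT1, MGAT4A, FUT8 and ST6GAL1 were called in none of these.

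**Figure D5:**
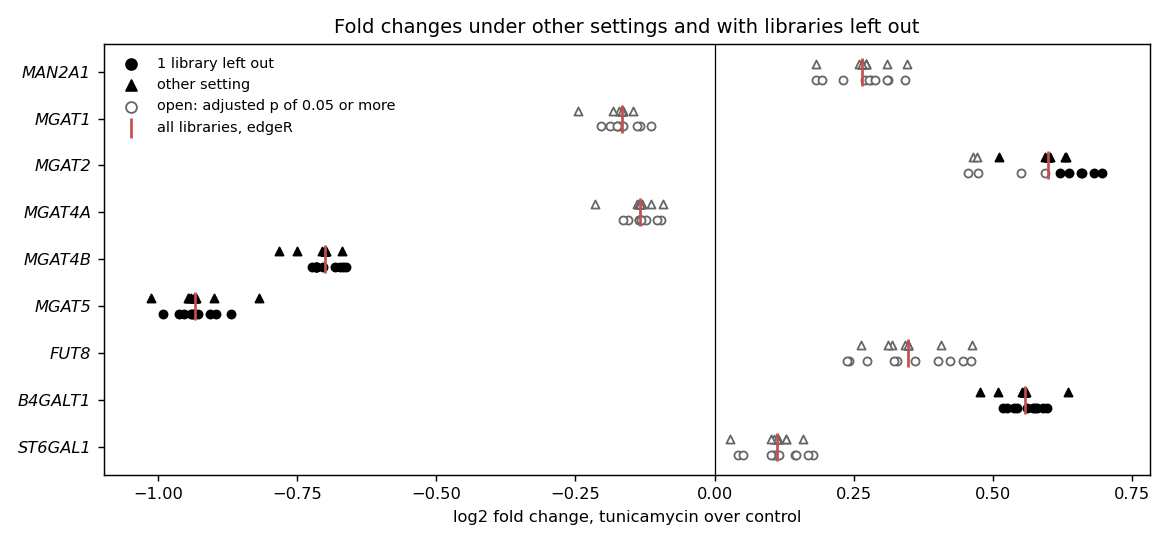
Log2 fold changes of the 9 tested genes with all libraries (red bars), with each library left out (circles) and under 10 other settings (triangles), filled where the adjusted p was under 0.05. Points of B4GALT1, MGAT4B and MGAT5 are all filled, those of MGAT2 are in part open, and MAN2A1 has a single filled triangle, the edgeR fit with the replicate block.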

How the data were processed

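The authors prepared QuantSeq 3′ libraries, processed the reads with the nf-core RNA-Seq pipeline at its default settings on hg19 with Ensembl transcripts, and deposited raw counts per gene, without normalization or filter. Beyond the pipeline and its defaults, the aligner, the counting program and the strand setting are not named in the sources used here. Genes were filtered with filterByExpr (minimum count 2, minimum total 10, after the study's methods) and tested with edgeR 4.0.16 (R 4.3.3), TMM scaling, a quasi-likelihood fit on condition alone and Benjamini-Hochberg adjustment over all 12733 genes at 0.05. The study itself used DESeq2, which is an alternative here (1.42.0). Standard errors are the log2 fold change over the root of its F statistic, and within-day and ratio values used a pseudocount of 0.5. Depth was 2234682 to 5029864 counts per library, which limits genes with few counts.

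Replicate numbers pair the libraries, since the series text ties each to its own day. Over 9707 genes, the deviations of same-numbered libraries from their group means correlated with r of 0.36, 0.0177, 0.0715, 0.164 and 0.141. The highest r of each control library with a tunicamycin library of another number was -0.00366, 0.168, 0.0557, 0.148 and 0.162. For replicates 2 and 5 this exceeded the r of the same number. On simulated counts for this comparison (12573 genes tested), 88 of 100 genes with a log2 change of 1 were called and 34 of 100 with 0.5, with 2 unchanged genes called. Only these genes were changed there, a far smaller share than the 34.2% called in the data, and the spread was set by a formula. The rates of calls therefore do not carry over to the real fit.

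The genes and lists were chosen with earlier results of these data known. Named are all 10 genes, the 2 genes of each other list with the largest change at an adjusted p under 0.05 and at least 20 normalized counts, the ratio partners, DPAGT1 and HSPA5. Chosen after their values were seen were MAN1A1, MAN1A2, B4GALT2, B4GALT5, B4GALT6, ST3GAL6, GNPTAB, FUT3, NANS, SLC35A2, SLC35C1, NANP and SLC35A1. PECAM1 was not analysed here. ALG9 had 2 rows, of which the one whose Ensembl identifier carries that symbol was used. Exon overlaps come from GENCODE 44 on GRCh38 by Ensembl identifier, and promoter windows from RefSeq; no hg19 coordinate is given.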

Additional observations from a re-analysis of the deposited data

Results flagged for a closer look

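In 4 of the 98 sets of 5 values examined, a single library was set apart by a wide gap, and chance gives about 4.9 such sets. In normalized counts, SLC10A7 had 108.96 in tunicamycin replicate 5 against 79.4 to 83.8 in the others, DPAGT1 had 343.85 in tunicamycin replicate 3 against 369 to 378, and SLC35A2 had 126.69 in tunicamycin replicate 1 against 167 to 179.6. The log2 ratio of MGAT5 to MGAT3 was 8.26 in control replicate 4, the library with the only MGAT3 count, against 9.64 to 10.1. No value of the 9 tested Golgi N-glycan processing genes themselves stood apart in this way.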

How the results depend on the processing

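Of 180 fold changes of the 9 tested genes under other settings or without a library, 173 kept their side of the threshold, 6 (MGAT2) lost the call, 1 (MAN2A1) gained it and 0 changed sign. The number called higher was 1 after thinning to the smallest library and 1 without tunicamycin replicates 4 and 5 (chosen after seeing the data), 1 to 2 with each library left out, and 3 with the replicate block; the number called lower was 2 throughout. Over all genes, 3477 to 4811 were called under other settings. Of the other Golgi enzymes, 4 were called higher with library size only and 4 after thinning, and 3 without tunicamycin replicates 4 and 5. With each library left out, the Golgi tethering and ion genes had 1 to 2 called lower, the lipid-linked oligosaccharide genes 3 to 5, and the other Golgi enzymes 3 to 6 called higher. With the replicate block the ratio of MGAT4B to MGAT4A (-0.57) and that of MGAT2 to MGAT1 (0.79) had an adjusted p of 0.0938, where 5 pairs allow no p below 0.0625, and beside the gain of MAN2A1 in edgeR (adjusted p = 0.0312) no other call of the 10 genes changed. After thinning, the log2 ratios were 0.51 for MAN2A1 to MAN2A2 (now called), -0.049 for B4GALT1 to B4GALT3 (reversed), -0.99 for MGAT5 to MGAT3 (now called) and 0.64 for MGAT2 to MGAT1 (no longer called). With each library left out they ranged from 0.30 to 0.52 for MAN2A1 to MAN2A2, from -0.027 to 0.044 for B4GALT1 to B4GALT3, from -0.047 to 0.31 for ST6GAL1 to ST3GAL4 and from -1.33 to -0.78 for MGAT5 to MGAT3. The values of MGAT5 to MGAT3, called or not, cannot be read, since MGAT3 was at or near 0 in every library. ST3GAL4, at 0.00039 on the log2 scale, was -0.000296 with DESeq2 size factors, -0.076 with library size only, -0.0053 with the default filter, -0.0082 with the replicate block in edgeR, -0.011 with that block in DESeq2, -0.016 without both shallow libraries and -0.14 to 0.13 with each library left out, and B4GALT5 was 0.016 after thinning. The causes were not tested. Thinning leaves fewer counts, and at this depth genes with few counts, such as MGAT3, FUT8 and FUT3, are measured with less precision. Fits without a library that end a call are named beside the result.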
